A study of Mus musculus with 6 samples.

Results

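The Reg lectins and the inducible antimicrobial genes of the gut epithelium were followed in RNA-seq of mouse duodenal epithelium with and without the nuclear receptor ESRRA. These genes were chosen by symbol, *Reg1*, *Reg3a*, *Reg3b*, *Reg3g* and *Reg4* for the Reg family and *Retnlb*, *Lcn2*, *Saa1*, *Saa2* and *Saa3* for the other inducible genes, and all 10 were found among the 22611 genes of the expression table. A mean above 1 FPKM was reached by 5 of the 10, the Reg genes, and by 10596 genes in all. FPKM counts sequenced fragments relative to transcript length and library size, so levels can be set side by side between genes.

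The 3 ESRRAKO libraries came from mice with a germline null allele of *Esrra* (Esrra-/-), which lack the receptor in every tissue and not only in the gut, and the 3 WT libraries from littermate controls. All mice ate a high-fat diet for several weeks before the duodenum was taken, and mice of both sexes were used. The breeding scheme of the study also carried a Villin-CreERT2 transgene and a floxed *Esrra* allele, and the labels give no more than WT and ESRRAKO for each library. The age of the mice at collection is not given in the sources used here. The epithelium was released from the first part of the small intestine with EDTA. The labels name no separation of crypts from villi, and the study's methods, which allow for both ways of collection, do not say which was used for RNA-seq.

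Reg proteins are small secreted C-type lectins. REG3B and REG3G are made by enterocytes and Paneth cells and restrain bacteria near the mucosal surface, and their genes are switched on by microbes through MYD88 signaling and through the cytokine IL-22, which acts on the epithelium by STAT3. Lipocalin 2 (*Lcn2*) withholds iron from bacteria, serum amyloid A proteins (*Saa1*, *Saa2*, *Saa3*) are acute-phase proteins that carry retinol and lipid, and resistin-like beta (*Retnlb*) is a goblet cell product with bactericidal activity. In this design the question was how these genes stood in epithelium that had lost *Esrra*.

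In the mm9 genome (GENCODE M1 annotation) the genes *Reg3b*, *Reg3d*, *Reg3a*, *Reg2*, *Reg1* and *Reg3g* follow each other on chromosome 6 within 97990 bases, from 78320879 to 78418868. *Reg3b* occupies 78320879 to 78323460 on the plus strand and *Reg3g* lies at the other end of the cluster, 78416262 to 78418868, on the minus strand. *Reg3a* (78330703 to 78333833) and *Reg1* (78375974 to 78378661) lie between them on the plus strand. *Reg4* stands apart on chromosome 3, 98026079 to 98040671. The *Saa* genes are on chromosome 7, *Lcn2* on chromosome 2 and *Retnlb* on chromosome 16.

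The 250 bases before the RefSeq start of transcription are shown for 4 genes of the cluster. *Reg3b* and *Reg3g* lie at its 2 ends, with *Reg3a* and *Reg1* between them. Across the 6 libraries *Reg3g* moved with *Reg3b* (Pearson r of log2 values 0.998), while *Reg3a* (−0.416) and *Reg1* (0.042) did not. For *Reg1* this rested on WT replicate 3, without which its r was 0.90. The sequences are those of RefSeq, whose promoter table held 9 of the 10 genes, and each was placed on mm9 by its only exact match on chromosome 6. The RefSeq start of *Reg1* lies slightly inside the GENCODE M1 gene, so its window overlaps the first bases of that gene as given above. Capitals mark matches to TATAAA and to TTCNNNGAA, the palindromic letters bound by STAT proteins, on either strand. All are written 5′ to 3′ on the strand of the gene.
Reg3b, chr6:78320629-78320878, plus strand: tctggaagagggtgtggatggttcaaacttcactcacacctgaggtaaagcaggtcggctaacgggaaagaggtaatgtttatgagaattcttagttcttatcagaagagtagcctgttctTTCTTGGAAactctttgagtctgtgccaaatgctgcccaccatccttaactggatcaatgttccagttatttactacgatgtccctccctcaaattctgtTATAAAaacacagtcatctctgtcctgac
Reg3g, chr6:78418869-78419118, minus strand: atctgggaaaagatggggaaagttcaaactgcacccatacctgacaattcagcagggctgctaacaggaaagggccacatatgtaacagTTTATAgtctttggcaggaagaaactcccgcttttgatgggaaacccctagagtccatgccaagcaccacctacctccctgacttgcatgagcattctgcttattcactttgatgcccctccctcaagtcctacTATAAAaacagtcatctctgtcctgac
Reg3a, chr6:78330453-78330702, plus strand: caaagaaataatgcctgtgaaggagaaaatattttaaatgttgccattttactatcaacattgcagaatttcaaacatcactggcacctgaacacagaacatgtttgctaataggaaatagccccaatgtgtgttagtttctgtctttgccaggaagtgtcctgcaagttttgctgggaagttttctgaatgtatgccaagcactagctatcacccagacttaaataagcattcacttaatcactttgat
Reg1, chr6:78375727-78375976, plus strand: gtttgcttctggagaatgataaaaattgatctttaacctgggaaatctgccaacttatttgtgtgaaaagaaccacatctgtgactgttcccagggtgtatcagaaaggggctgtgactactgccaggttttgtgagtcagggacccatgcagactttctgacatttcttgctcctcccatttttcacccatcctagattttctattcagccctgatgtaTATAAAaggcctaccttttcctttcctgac

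The upstream sequences of *Reg3b* and *Reg3g* were identical at 177 of 250 bases (70.8%) in a global alignment, and the other pairs at 59.2% to 61.6%. These shares are of the window length, and the aligned bases numbered 243 for *Reg3b* with *Reg3g* but 191 to 214 for the other pairs. Of aligned bases, 148 of 191 were identical for *Reg3b* with *Reg3a* and 154 of 195 for *Reg3g* with *Reg3a*. The shares thus depend on gap length and do not rank the pairs. *Reg3b* holds TATAAA from base −29 to −24, *Reg3g* from −27 to −22 and *Reg1* from −30 to −25, counted back from the start, and 13.0% of 27025 promoters of this length hold these letters on either strand. *Reg3g* holds them a further time on the opposite strand, from −161 to −156. The *Reg3a* window ends on letters that in *Reg3g* stand before TATAAA near the start. The bases after them were not searched in *Reg3a*, so its lack of a match is no difference between the genes. The STAT letters occur in *Reg3b* only among these 4 windows, as TTCTTGGAA from −129 to −121, and in 7.18% of all promoters. AAGGTCA, the core letters bound by ESRR receptors, occurs in 4.05% of all promoters and in none of these 4 windows. A match of letters is no evidence of binding.

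Reads of the 2 most abundant genes could be told apart by sequence. Of the 729 stretches of 31 bases in the *Reg3b* transcript, 5 (0.686%) also occur in another protein-coding transcript, that of *Reg3g*, and *Reg1*, *Reg3a*, *Reg4*, *Lcn2* and *Retnlb* share none. *Saa1* shares 26.3% of its stretches with other genes, mostly *Saa2*, whose coding sequence is identical at 95.1% of aligned bases, so the values of *Saa1* and *Saa2* are uncertain as separate genes.

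The libraries showed the labelled genotypes and tissue. *Esrra* had 49.4 to 104 FPKM in WT and 8.72 to 10.4 in Esrra-/-. The 10 villus enterocyte markers summed to 40074 to 65016 FPKM in WT and 49583 to 68660 in Esrra-/-. The pancreatic acinar genes *Cpa1*, *Prss2*, *Pnlip* and *Amy2a5* were listed at 0 in all 6 libraries, and the neutrophil list summed to at most 2.46 FPKM in any library. The liver list summed to 2.47 to 5.49 FPKM in WT and 1.39 to 2.40 in Esrra-/-, without overlap, and its 1 tested gene, *Ttr*, was called lower (log2 fold change −1.12, limma adjusted p = 0.410), a call lost without WT replicate 2, WT replicate 3 or Esrra-/- replicate 1. Of the libraries, WT replicate 3 and Esrra-/- replicate 3 held Y-linked transcripts only in traces, with 0.0487 and 0.222 FPKM over 4 genes where the others had 27.3 to 46.7. Differences between genotypes were tested with limma on log2(FPKM + 0.1) over the 10596 genes, a scale that understates the change of low genes, and a gene was called at an unadjusted p under 0.05 when the log2 difference of Esrra-/- from WT also exceeded 0.58 in size.

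By mean level over the 6 libraries the order was *Reg3b*, *Reg3g*, *Reg3a*, *Reg1* and *Reg4*. *Reg3b* exceeded *Reg3g* in 6 of 6 libraries, and *Reg3a* exceeded *Reg4* in 6 of 6. *Reg3a* and *Reg1*, neighbours in this order, had 253 ± 70.7 and 265 ± 20.4 FPKM in WT (SD, n = 3 mice) and did not differ beyond their spread there. In Esrra-/- they had 222 ± 35.5 and 118 ± 73.5 FPKM, and *Reg1* exceeded *Reg3a* in 1 of the 6 libraries, WT replicate 1. Their order by mean thus came from the Esrra-/- libraries. Together *Reg3b* and *Reg3g* made up 87.5% to 94.3% of the summed FPKM of the 5 Reg genes in 5 libraries and 38.5% in WT replicate 3.

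*Reg3b* was among the most abundant transcripts of the duodenal epithelium. It had 5400, 4612 and 257 FPKM in WT replicates 1 to 3 and 2762, 1727 and 2648 FPKM in the Esrra-/- replicates. By level it ranked 15th and 31st of all genes in WT replicates 1 and 2, 30th to 49th in the Esrra-/- libraries and 440th in WT replicate 3. WT replicates 1 and 2 lay above every Esrra-/- library and WT replicate 3 lay below all of them, 6.71-fold under the next lowest library.

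*Reg3g*, the paralog whose product acts on Gram-positive bacteria, followed the same course. Its level was 3043, 2273 and 183 FPKM in WT replicates 1 to 3 and 1727, 1069 and 1503 FPKM in the Esrra-/- replicates. The ratio of *Reg3b* to *Reg3g* stayed between 1.40 and 2.03 in the 6 libraries, while the level of *Reg3b* ranged over 21.0-fold and that of *Reg3g* over 16.6-fold.

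**Figure D1:**
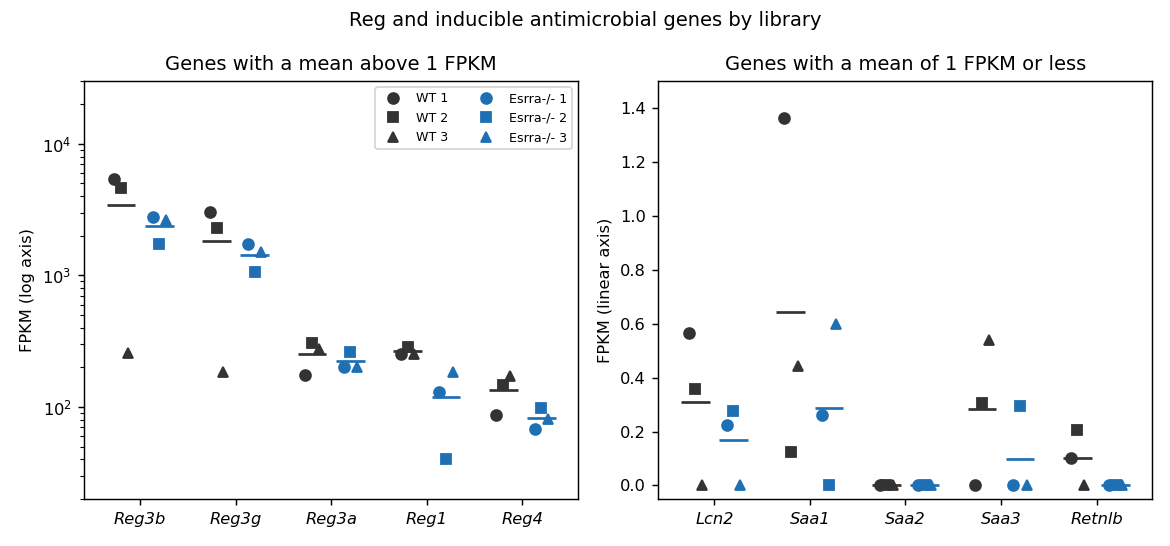
FPKM of the 10 genes in each library, on a log axis for the 5 Reg genes (left) and on a linear axis for the 5 genes with a mean of 1 FPKM or less (right), with WT in black, Esrra-/- in blue, a symbol for each replicate number and a bar at each group's mean. WT replicate 3 (black triangle) sits far below the other libraries for *Reg3b* and *Reg3g*, at 257 and 183 FPKM, and among the other WT libraries for *Reg3a* and *Reg1*.

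A drop of this kind in a single library was uncommon among genes. Of the 10596 genes tested, 38 (0.359%) had a gap between the lowest library and the next at least as wide as that of *Reg3b* (2.75 on the log2 scale), and WT replicate 3 was the lowest library for 6 of them. Among the 81 genes with a mean above 1000 FPKM, 2 had such a gap, *Reg3b* included.

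With all 6 libraries neither gene passed the test between genotypes. *Reg3b* averaged 3423 ± 2770 FPKM in WT and 2379 ± 567 in Esrra-/- (SD, n = 3 each), and its log2 fold change was 0.33 (95% interval −2.22 to 2.87, limma adjusted p = 0.932). The arithmetic means and the mean of the log values thus point in opposite directions. *Reg3g* averaged 1833 ± 1480 and 1433 ± 335 FPKM, with a log2 fold change of 0.38 (95% interval −1.92 to 2.68, limma adjusted p = 0.913), again with the higher arithmetic mean in WT. For both, the two-sided exact permutation test over the 6 libraries gave p = 1.

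The result for both genes turned with WT replicate 3. Without it the log2 fold change was −1.10 for *Reg3b* (95% interval −1.82 to −0.37, limma adjusted p = 0.376) and −0.90 for *Reg3g* (95% interval −1.61 to −0.20, limma adjusted p = 0.409). Both were then called lower in Esrra-/-, by the unadjusted rule that called 3.76% of all genes lower and 2.02% higher in that fit of 2 against 3 libraries. Leaving out any other library kept the log2 fold change positive, between 0.20 and 1.10 for *Reg3b* and between 0.23 and 1.12 for *Reg3g*, with neither called.

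**Figure D2:**
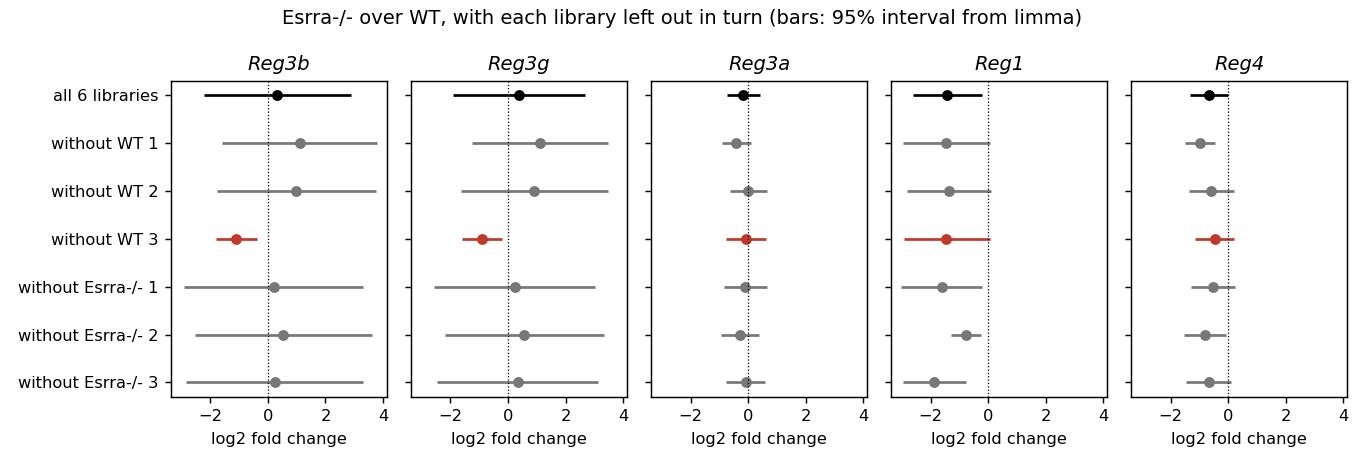
Log2 fold change of the 5 Reg genes, Esrra-/- over WT, from limma with all 6 libraries and after removing each library once; points are estimates, bars are 95% intervals, and the fit without WT replicate 3 is in red. *Reg3b* and *Reg3g* lie above 0 in every fit but the red one, where they are at −1.10 and −0.90, and *Reg1* lies below 0 in every fit.

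*Reg1*, a Reg gene best known from the exocrine pancreas and also made in the intestine, was lower in Esrra-/- and kept its level in WT replicate 3. The values were 252, 288 and 254 FPKM in WT replicates 1 to 3 and 130, 40.0 and 186 FPKM in the Esrra-/- replicates. Every WT library lay above every Esrra-/- library, which held for 9.14% of all genes tested, and Esrra-/- replicate 2 was the lowest by 3.24-fold. The mean was 265 ± 20.4 FPKM in WT and 118 ± 73.5 in Esrra-/- (SD, n = 3 each), and *Reg1* fell by 1.42 on the log2 scale (95% interval −2.62 to −0.22, limma adjusted p = 0.397). The unadjusted limma p = 0.0267 met the rule for a call, and the exact permutation p = 0.1 is the smallest that 3 mice against 3 allow.

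The size of the *Reg1* difference rested on a single library. Without Esrra-/- replicate 2 the log2 fold change was −0.77 (limma adjusted p = 0.297) and *Reg1* was still called. Leaving out any of the 3 WT libraries gave −1.35 to −1.45 and ended the call, since the unadjusted p then passed 0.05. Of the 16 pancreatic acinar markers, 8 were listed at 0 in every library and 13 stayed below 1 FPKM. Their sum, 175 to 309 FPKM in WT and 47.4 to 160 in Esrra-/-, was mostly *Clps*, the lipase cofactor colipase, which was called lower with 175, 304 and 170 FPKM in WT and 103, 155 and 43.3 FPKM in Esrra-/-. The call (log2 fold change −1.24, limma adjusted p = 0.415) was lost without WT replicate 2 or Esrra-/- replicate 3 and after quantile normalization. *Clps* was lowest in Esrra-/- replicate 3, where *Reg1* was the highest of its genotype, and its part in the *Reg1* result was not tested.

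In WT replicate 3 the ratio of *Reg1* to *Reg3b* was 0.986, against 0.0231 to 0.0701 in the other 5 libraries.

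*Reg3a* held nearly the same level in the 6 libraries. It had 173, 309 and 277 FPKM in WT replicates 1 to 3 and 202, 263 and 201 FPKM in the Esrra-/- replicates, and the genotypes overlapped. The log2 fold change was −0.16 (95% interval −0.75 to 0.43, limma adjusted p = 0.846). Its highest value was 1.78 times its lowest, although the gene lies between *Reg3b* and *Reg3g* in the cluster.

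*Reg4*, a Reg gene of secretory cells of the gut, had 86.5, 147 and 173 FPKM in WT replicates 1 to 3 and 67.7, 98.2 and 81.1 FPKM in the Esrra-/- replicates. The genotypes overlapped, since WT replicate 1 lay below Esrra-/- replicate 2. The mean was 135 ± 44.2 FPKM in WT and 82.3 ± 15.3 in Esrra-/-, with a log2 difference of −0.67 (95% interval −1.33 to −0.02, limma adjusted p = 0.444). *Reg4* was called lower with an unadjusted limma p = 0.044, beside an exact permutation p = 0.2. The call was lost without WT replicate 2 (−0.59), WT replicate 3 (−0.47), Esrra-/- replicate 1 (−0.54) or Esrra-/- replicate 3 (−0.67).

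In all, 2 of the 5 Reg genes tested were called lower and none higher, where 3.28% of all genes were called lower and 1.35% higher. No Reg gene had an adjusted p under 0.05 from limma, against 0.0378% of all genes, and *Reg1* and *Reg4* were the 2 with an unadjusted p under 0.05. Without WT replicate 3 again 2 were called lower, *Reg3b* and *Reg3g*, and 0 genes were called in both fits. The median log2 fold change of the 5 genes was −0.16 with all libraries and −0.90 without WT replicate 3, where that of all genes was 0.03 in both.

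The other Reg genes of the cluster were at low levels. *Reg3d* had 1.87 to 3.42 FPKM in WT and 1.58 to 2.71 in Esrra-/-, with a log2 fold change of −0.21 (limma adjusted p = 0.817). *Reg2* was listed at 0 in 5 libraries and at 0.123 FPKM in WT replicate 3. *Saa4*, a further serum amyloid A gene, had at most 0.169 FPKM.

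The inducible genes outside the Reg family were at the bottom of the scale in both genotypes. *Lcn2* had 0.567, 0.359 and 0 FPKM in WT and 0.224, 0.277 and 0 FPKM in Esrra-/-, and was listed at 0 in replicate 3 of each genotype. *Saa1* had 1.36, 0.126 and 0.444 FPKM in WT and 0.26, 0 and 0.601 FPKM in Esrra-/-. *Saa3* reached 0.54 FPKM and was listed at 0 in 3 libraries.

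*Retnlb* was listed at 0 in 4 libraries and had 0.102 and 0.206 FPKM in WT replicates 1 and 2. *Saa2* was listed at 0 in all 6 libraries. These 5 genes did not reach the mean of 1 FPKM set for the test, and the genotypes overlapped for each.

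Among 27 further genes of inducible epithelial defence, 24 were in the table and 13 were tested. *Ang4*, an angiogenin of Paneth cells, was called lower in Esrra-/- (log2 fold change −1.37, limma adjusted p = 0.457), and none was called higher. Of all genes tested 3.28% were called lower and 1.35% higher. The *Ang4* call was lost without WT replicate 1 (−1.38), WT replicate 2 (−1.08) or Esrra-/- replicate 3 (−0.70). In this list 0 genes were called without WT replicate 1 or WT replicate 2, and 2 were called lower without WT replicate 3 or Esrra-/- replicate 2. None was called after quantile normalization, and none lower with no filter on low values or no mean-variance trend, while the replicate block and the covariate for Y-linked transcripts each gave 2 lower and 1 higher. WT replicate 3 was the lowest of the 6 libraries for 6 of the 13, *Duox2*, *Duoxa2*, *Fut2*, *Sprr2a1*, *Sprr2a3* and *Fer1l6*, where it was the lowest for 20.6% of all genes tested.

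*Duox2*, the dual oxidase that releases hydrogen peroxide at the epithelial surface, had 7.60, 8.99 and 0.666 FPKM in WT replicates 1 to 3 and 4.94, 5.80 and 1.73 FPKM in the Esrra-/- replicates. Its maturation factor *Duoxa2* had 4.76, 5.53 and 0.571 FPKM in WT and 2.59, 2.57 and 0.708 FPKM in Esrra-/-. *Fut2*, the fucosyltransferase that decorates the epithelium for commensal bacteria, had 0.929, 3.45 and 0.223 FPKM in WT and 0.472, 1.20 and 0.337 FPKM in Esrra-/-. These 3 genes were lowest in WT replicate 3, as *Reg3b* and *Reg3g* were, and next lowest in Esrra-/- replicate 3, where *Reg3b* and *Reg3g* were not low.

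None of the 3 was called between genotypes with all libraries, where the log2 fold changes were 0.01 for *Duox2*, −0.55 for *Duoxa2* and −0.62 for *Fut2*. Without WT replicate 3 these were −1.14, −1.54 and −1.48, and *Duoxa2* was called lower (limma adjusted p = 0.416). Without Esrra-/- replicate 3 they were 0.53, 0.02 and −0.30, with none called. *Pigr*, the receptor that carries IgA into the lumen, had 477 to 858 FPKM in Esrra-/- and 727 to 1066 in WT (log2 fold change −0.51, limma adjusted p = 0.556). It was called lower without Esrra-/- replicate 3 (−0.77, limma adjusted p = 0.431) and stood at −0.35 without WT replicate 1 or Esrra-/- replicate 1. *S100a8* and *Bpifb1* were listed at 0 in every library.

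**Figure D3:**
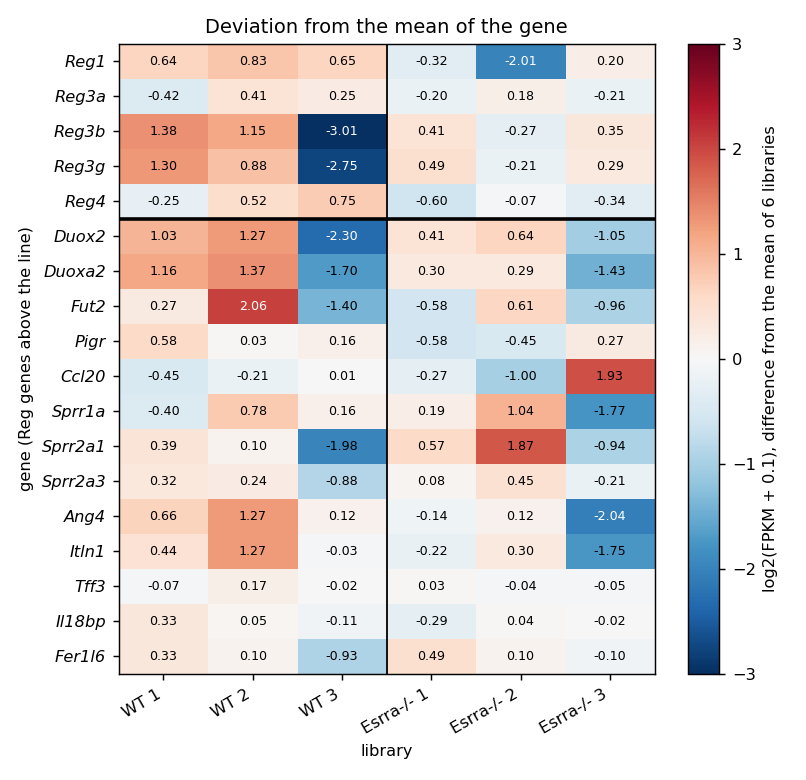
Difference of log2(FPKM + 0.1) from the gene's mean over the 6 libraries, for the 5 Reg genes (above the line) and the 13 tested genes of inducible epithelial defence, with red above and blue below the mean. In the WT 3 column *Reg3b* (−3.01), *Reg3g* (−2.75), *Duox2* (−2.30), *Sprr2a1* (−1.98), *Duoxa2* (−1.70) and *Fut2* (−1.40) are low. *Reg1*, *Reg4* and *Pigr* are not low there.

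With all 6 libraries no gene was called in the lists of signals known to act on these genes. In the IL-22 and STAT3 list 0 of 9 tested genes were called, in the IL-17 and NF-kB list 0 of 11, in the microbe-sensing list 0 of 10 and in the list of type 2 signals to goblet cells 0 of 4. Of all genes tested 3.28% were called lower and 1.35% higher, so 0 calls in lists this short is close to that share. The median log2 fold changes of these lists were 0.17, 0.19, 0.01 and 0.34, where that of all genes was 0.03. *Tyk2* and *Il13ra1* had an unadjusted limma p under 0.05, with log2 fold changes of 0.37 and 0.36 that were too small for a call. Calls appeared when a library was left out: *Il22ra1* higher (0.99) and *Socs3* lower (−0.77) without WT replicate 2, *Socs3* lower (−0.78) without Esrra-/- replicate 3, and *Il4ra* higher (0.60) without WT replicate 1.

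*Il22ra1*, the epithelial subunit of the IL-22 receptor, had 16.5, 22.4 and 8.60 FPKM in WT replicates 1 to 3 and 19.4, 26.6 and 25.9 FPKM in the Esrra-/- replicates (log2 fold change 0.69, limma adjusted p = 0.515). *Stat3* had 31.9, 28.9 and 22.3 FPKM in WT and 33.4, 36.8 and 34.1 in Esrra-/-. WT replicate 3 was the lowest library for both, and every Esrra-/- value of *Stat3* lay above every WT value, as for 8.45% of genes (log2 fold change 0.34, limma adjusted p = 0.498). Without WT replicate 3 the log2 fold change was 0.30 for *Il22ra1* and 0.19 for *Stat3*. The cytokine genes *Il22* and *Il17a* were listed at 0 in all libraries. *Myd88* had 14.0 to 15.4 FPKM in WT and 15.6 to 18.1 in Esrra-/-. *Jak1*, *Tyk2*, *Traf3ip2* and *Il13ra1*, like *Stat3* and *Myd88*, had every Esrra-/- library above every WT library, with log2 fold changes of 0.20 to 0.37 over these 6 genes and none called.

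Of the markers of Paneth and crypt cells, 6 of 11 and 1 of 8 were called lower in Esrra-/-, and the sums of both lists overlapped between the genotypes. Of all genes tested 3.28% were called lower. *Ang4*, the gene called in the defence list, is 1 of the 6 Paneth calls. The 11 tested markers of Paneth cells, which secrete defensins and lysozyme, all had values below 0 for the log2 fold change (45.7% of all genes did), and their median was −1.48. Several are defensin genes with near-identical copies and are uncertain one by one. The number called lower was 1 without WT replicate 1, WT replicate 2 or Esrra-/- replicate 3, 10 without Esrra-/- replicate 2, 1 after quantile normalization or with no filter on low values, and 11 with the replicate block or with the covariate for Y-linked transcripts. By limma's adjusted p none of these markers was under 0.05. The summed Paneth markers were 17235, 34107 and 13973 FPKM in WT replicates 1 to 3 and 9415, 14061 and 2752 FPKM in the Esrra-/- replicates. The genotypes overlapped narrowly, and Esrra-/- replicate 3 was the lowest.

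The 8 crypt markers were all below 0 too, with a median log2 fold change of −0.75, and *Smoc2* was called lower (4 markers without WT replicate 3, and 5 without Esrra-/- replicate 2, with the replicate block or with the covariate for Y-linked transcripts). Their sums were 240, 293 and 159 FPKM in WT and 141, 212 and 66.7 FPKM in Esrra-/-. Esrra-/- replicate 3, the lowest for both lists, had *Reg3b* and *Reg4* close to the other Esrra-/- libraries and the highest *Reg1* of that genotype. The goblet list summed to 7684 to 9220 FPKM in WT and 8061 to 8694 in Esrra-/-, and the enteroendocrine list to 354 to 648 and 386 to 509 FPKM. *Spink4* of the goblet list was called lower (log2 fold change −0.78, limma adjusted p = 0.410), a call lost without WT replicate 1, WT replicate 2, Esrra-/- replicate 1 or Esrra-/- replicate 3 and after quantile normalization. No enteroendocrine marker was called with all libraries and 1 was called lower without WT replicate 1. The tuft cell list summed to 13.0 to 19.5 FPKM in WT and 14.2 to 19.6 in Esrra-/-, and *Il17rb*, a receptor for IL-25, was called higher with 1.01 to 1.17 FPKM in WT and 1.76 to 2.49 in Esrra-/- (log2 fold change 0.90, limma adjusted p = 0.295). Fewer cells of a type and less RNA per cell cannot be told apart in these bulk libraries, and the part of cell type proportions in the Reg values was not tested.

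**Figure D4:**
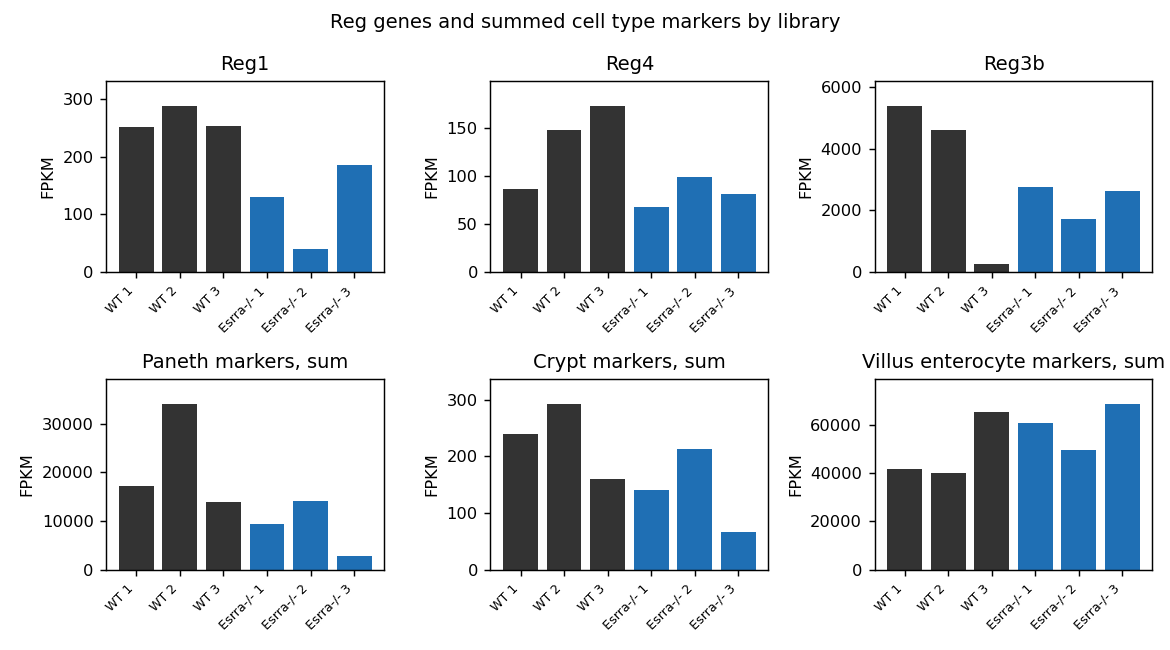
FPKM of *Reg1*, *Reg4* and *Reg3b* (top) and summed FPKM of the Paneth, crypt and villus enterocyte markers (bottom) in each library, with WT in black and Esrra-/- in blue. *Reg3b* is lowest in WT 3 (257 FPKM), *Reg1* in Esrra-/- 2 (40.0 FPKM), and the Paneth and crypt sums in Esrra-/- 3 (2752 and 66.7 FPKM).

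The genes with the pattern most like that of *Reg3b* across the 6 libraries, apart from the Reg genes themselves, were *Cdk17*, *Tcf12*, *Cldn12*, *Zbed4* and *Tmed7* (Pearson r of log2 values 0.978 to 0.993, 6 libraries, given as a description). All 5 had their lowest value in WT replicate 3, over a far narrower range than *Reg3b*. *Tcf12* had 8.23 FPKM there and 9.79 to 10.9 in the other libraries. Without WT replicate 3 the r of the 5 genes was 0.83 to 0.95. The r of *Reg3g* with *Reg3b* was 0.998 over the 6 libraries and 0.99 without WT replicate 3. That of *Reg1* was 0.042 over the 6 libraries and 0.90 without WT replicate 3. Those of *Reg3a* were −0.416 and −0.19, and those of *Reg4* were −0.563 and 0.32. The libraries share scaling and genotype, so these r values are not independent measures.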

How the data were processed

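RNA of duodenal epithelial cells was sequenced in 3 WT and 3 Esrra-/- mice, 1 library per mouse, and samples were grouped by title. Per the study's methods and the submitters' processing notes the reads were checked with FastQC 0.11.3, quantified with kallisto (version given as 2.1.0) on mm9 and converted to FPKM with DESeq2 (version given as 2.2.1); the annotation is not given in the sources used here. The authors deposited FPKM values for 22611 genes and a table of their own comparison (mean counts, fold changes, p-values), which was not used. FPKM gives no fragment counts, so precision rests on the spread between mice.

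Log2(FPKM + 0.1) of the 10596 genes with a mean above 1 FPKM was tested with limma 3.58.1 (R 4.3.3; mean-variance trend, no covariate, Benjamini-Hochberg adjustment) and checked on simulated data. Exact permutation tests were two-sided. Sequences were aligned with Biopython 1.88 (match 1, mismatch −1, gap opening −2, extension −0.5). The genes and lists were chosen with earlier results of these data known. Named were the 10 genes, *Esrra*, *Reg2*, *Reg3d* and *Saa4*, called genes of the signalling and defence lists (up to 5 each) and the 5 genes most like *Reg3b*. Other list genes, such as *Duox2*, *Stat3* and *Il22ra1*, and the marker genes were named after their values were seen. Alternatives were a pseudocount of 1, 2 other filters, 2 scalings, no trend, a replicate block, a covariate for Y-linked transcripts, leaving out each library, and an adjusted p under 0.05.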

Additional observations from a re-analysis of the deposited data

How the results depend on the processing

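When the libraries were removed one at a time, log2 fold changes ran from −1.87 to −0.77 for *Reg1*, from −0.41 to 0.01 for *Reg3a* (0.01 without WT replicate 2), from −1.10 to 1.10 for *Reg3b* (−1.10 without WT replicate 3), from −0.90 to 1.12 for *Reg3g* (−0.90 without WT replicate 3) and from −0.97 to −0.47 for *Reg4*. From 0 to 2 Reg genes were called lower in these fits, and 252 to 537 genes of all were called lower and 146 to 214 higher (537 lower without Esrra-/- replicate 2). Without a mean-variance trend *Reg4* kept −0.67 but was not called, which left 1 Reg gene called lower. With no filter on low values 528 genes were called lower and 277 higher. An adjusted p under 0.05 left 2 genes lower, 2 higher and 0 Reg genes from limma, where 2 Reg genes had an unadjusted p under 0.05. The causes of these shifts were not tested.

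Scaling by median ratios or quantiles, a pseudocount of 1 and the Y-linked covariate kept the direction of all 5 Reg genes and both calls, with *Reg3b* at 0.56 and *Reg3g* at 0.63 after quantile normalization. Pairing of the mice by replicate number was not established, since 1 of 3 correlations was near 0: deviations of same-numbered libraries correlated at 0.0116, 0.263 and 0.376, and 4 of 6 libraries correlated best with their own number. With the replicate block 441 genes were called lower and 192 higher, *Reg1* (−1.42) and *Reg4* (−0.67) among them.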
